A study of Mus musculus with 56 samples.

Results

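The change of ribosome association beyond the change of RNA level after loss of HuR was measured in male mice, as an interaction of genotype and RNA type. It is the effect of genotype in RNA held by tagged ribosomes minus the effect of genotype in total RNA, on the log2 scale. The male libraries were found by their labels and numbered 28 of the 56 in the series, and 11931 genes of the 57010 in the table had enough counts to be tested. Gastrocnemius, a calf muscle, was taken from mice aged 20 to 22 weeks. All mice carried a GFP-tagged form of the ribosomal protein L10A, switched on by Cre recombinase under the Mlc1f promoter, a myosin light chain promoter active in skeletal muscle fibres. The labelled knockouts also carried a floxed Elavl1 gene, so that Cre removes HuR in the same cells, while the controls did not. The male labels carry 14 numbers, each with a ribosomal and a total library, which were read as 14 mice. There were 7 libraries of labelled-knockout ribosomal RNA, 7 of control ribosomal RNA, 7 of labelled-knockout total RNA and 7 of control total RNA. The female libraries, with the same 4 groups of 7, served as a comparison.

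HuR, the product of Elavl1, is an RNA-binding protein of the ELAV family. It binds AU-rich and U-rich stretches, mostly in the 3′ UTR of mRNAs, and is known to affect their stability, their splicing and their use by ribosomes. A tagged ribosomal protein allows ribosomes of the cells that express it to be pulled out of a whole tissue with the mRNAs they hold. Ribosomal RNA here therefore stands for mRNA on fibre ribosomes, and total RNA for all RNA of the muscle, from fibres and from every other cell type. A negative interaction means that a gene stood lower in ribosomal RNA of labelled knockouts than its total RNA would give, relative to controls, and a positive one the reverse. In bulk samples, fewer cells of a type and less RNA per cell cannot be told apart.

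The ribosomal libraries held 0.16 to 3.58 M counts in labelled knockouts and 0.705 to 2.85 M in controls. Total libraries held 2.63 to 5.85 M in labelled knockouts and 2.43 to 5.14 M in controls. The labelled cell type was checked by fibre markers, whose 8 genes summed to a median of 91100 CPM, the count scaled to a fixed library total, in ribosomal RNA of labelled knockouts and 89600 CPM in that of controls. In total RNA the same sums had medians of 43100 CPM in labelled knockouts and 37000 CPM in controls. Several libraries stood apart. The ribosomal libraries of labelled knockout 2 and control 20 were the shallowest of their groups and the highest in mitochondrially encoded mRNA, with 19900 CPM and 9710 CPM against group medians of 1800 CPM and 2270 CPM. Their fibre marker sums were also the highest of their groups, at 146000 CPM and 174000 CPM. In the ribosomal library of labelled knockout 2, 1 count equalled 8.58 CPM, and a count of 0 allows up to 25.7 CPM (3 counts, counting error only). Reads outside genes made up 9.78 to 13.9% in total libraries of labelled knockouts and 12.4 to 23.4% in those of controls, where controls 25, 26 and 27 were highest. Mss51, a mitochondrial protein gene of skeletal muscle, rose in both RNA types, but stood at 187 CPM and 191 CPM in the total libraries of labelled knockouts 1 and 12, inside the control range of 134 to 281 CPM. Each of these sets of libraries was left out in turn, and the count of called genes without it is given with the calls.

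Elavl1 itself (ENSMUSG00000040028), the targeted gene, was not called in any contrast. Its ribosomal level ran from 54.5 through a median of 84.3 up to 121 CPM in labelled knockouts, and from 56.9 through 74.7 up to 83.6 CPM in controls. Its total level was 46.3 at the lowest, 74.6 at the median and 86.2 CPM at the highest in labelled knockouts, and 62, 75.5 and 104 CPM in controls. The groups overlapped in both RNA types. The interaction was 0.39 (standard error 0.198, adjusted p = 0.535, edgeR quasi-likelihood test), with an effect of 0.29 in ribosomal RNA and −0.10 in total RNA. Counts here come from the 3′ end of transcripts, and the labels do not name the floxed exons. A tag outside the deleted part checks nothing, so the groups are called labelled knockouts.

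Of 11931 genes 19 passed a threshold of 0.05 on the adjusted p (Benjamini-Hochberg), which is 0.159% of all genes tested. Of these, 3 were higher (0.0251%) and 16 lower (0.134%), and 1160 genes had an unadjusted p under 0.05. The higher genes were Rock1, a kinase of the actin cytoskeleton, Srek1, a splicing regulator, and 5031425E22Rik. Among the lower ones were genes of secreted or matrix proteins such as Thbs4 and Dkk3, of the endoplasmic reticulum such as Os9, of cell membranes such as Il1r1 and Atp1b3, and the scaffold gene Tanc1. The median interaction of all genes was −0.03 and the median standard error 0.241. The p-values measure the spread between libraries within a group, and the fit did not pair the ribosomal and total library of a mouse. Ribosomal and total RNA themselves differed for most genes, at 8162 genes in labelled knockouts (68.4%, 30.8% higher and 37.6% lower in ribosomal RNA) and 8494 in controls (71.2%, 32.6% higher and 38.6% lower).

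Each side of the difference alone gave many more calls than the difference did. The sides were also measured more precisely. Their median standard errors were 0.188 in ribosomal and 0.149 in total RNA, against 0.241 for the interaction, so the numbers of calls do not compare at equal precision. Genotype alone was called for 1236 genes in ribosomal RNA (10.4%), with 540 higher (4.53%) and 696 lower (5.83%) in labelled knockouts. In total RNA it was called for 1303 genes (10.9%), with 781 higher (6.55%) and 522 lower (4.38%). Both RNA types called 424 genes, and 423 of these moved in the same direction, which is 34.2% of the ribosomal calls and 32.5% of the total RNA calls. The 1 gene called in opposite directions was 4632427E13Rik, chosen here after its values were seen, at 0.90 in ribosomal RNA and −0.49 in total RNA. Its interaction of 1.38 did not pass (adjusted p = 0.0779). Of the 19 genes with a called interaction, 17 were called in ribosomal RNA and not in total RNA. Tanc1 and 5031425E22Rik were called in both, in the same direction, with the larger change in ribosomal RNA. None was called in total RNA alone.

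**Figure D1:**
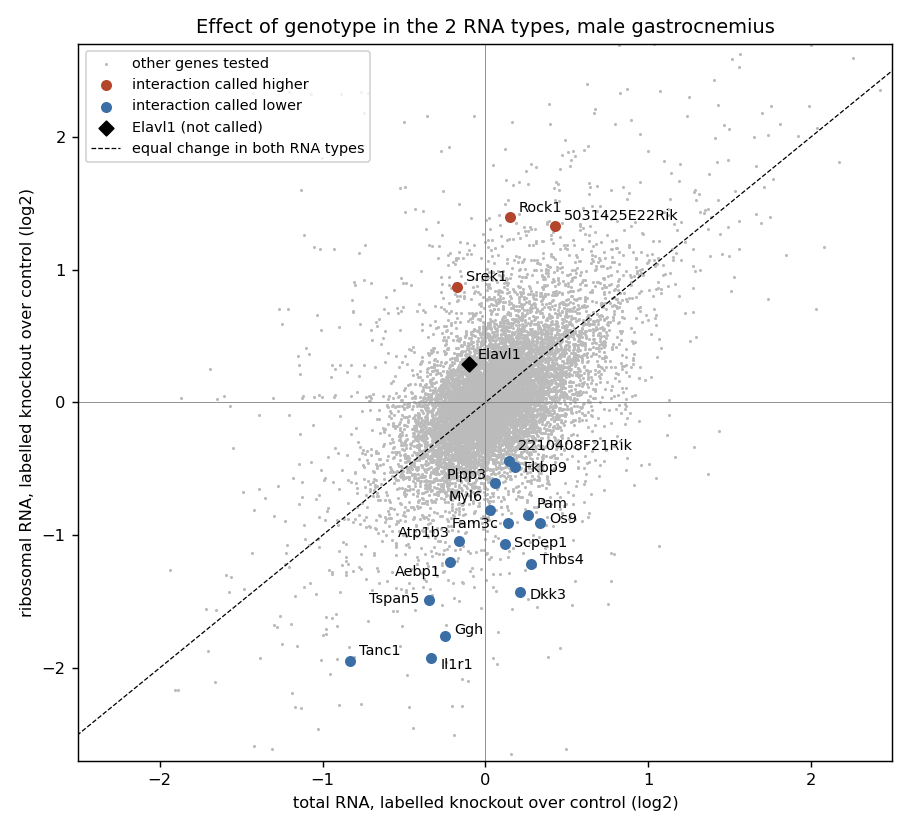
Each point is a gene, with its log2 change in labelled knockouts over controls in total RNA on the horizontal axis and in ribosomal RNA on the vertical axis, and 46 genes lie outside the axes. The dashed line marks equal change: the 3 genes called higher lie above it, the 16 called lower lie below it, and most of the 19 lie near 0 on the horizontal axis.

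The plot of both effects shows the calls as a vertical displacement. The called genes other than Tanc1 and 5031425E22Rik had total RNA effects between −0.35 (Tspan5) and 0.33 (Os9), whereas their ribosomal effects reached 1.39 (Rock1) upward and −1.93 (Il1r1) downward.

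Rock1 encodes a serine/threonine kinase that acts on actin filaments and myosin light chain. Its ribosomal level ran from 77.2 through a median of 153 up to 183 CPM in labelled knockouts, and from 33.4 through 59.8 up to 69.2 CPM in controls. Every labelled knockout lay above every control in ribosomal RNA. The lowest, 77.2 CPM, was 9 counts in the shallow library of labelled knockout 2, which does not exclude the control range. In total RNA the levels were 138 at the lowest, 200 at the median and 282 CPM at the highest in labelled knockouts and 161, 175 and 210 CPM in controls, and the groups overlapped. The effect of genotype was 1.39 (standard error 0.140, adjusted p = 3.1e-08) in ribosomal RNA and 0.15 (adjusted p = 0.479) in total RNA, which gave an interaction of 1.24 (standard error 0.187, adjusted p = 0.00105). Relative to total RNA, Rock1 stood at −0.39 (log2) in ribosomal RNA of labelled knockouts and at −1.63 in that of controls.

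Srek1 encodes a serine- and arginine-rich regulator of splice site choice. In ribosomal RNA it stood at 63.6, 71.5 and 112 CPM (lowest, median, highest) in labelled knockouts and at 30.8, 41.7 and 71.5 CPM in controls. The groups overlapped only through control 20, the shallow library at 71.5 CPM, since the other controls reached 47.7 CPM at most. In total RNA the values were 49, 63.2 and 71.4 CPM in labelled knockouts and 53.2, 73 and 86.6 CPM in controls. The interaction was 1.05 (standard error 0.201, adjusted p = 0.0168), with a ribosomal effect of 0.87 and a total effect of −0.18. The third gene called higher, 5031425E22Rik, falls outside the naming rule because it has a clone name, and no role is given for it here. It stood at 34.3, 79.3 and 98.9 CPM in ribosomal RNA of labelled knockouts and at 26.6, 33.8 and 42.4 CPM in that of controls. In total RNA it stood at 40.5, 65.6 and 78.8 CPM in labelled knockouts and 40.9, 49.2 and 52.7 CPM in controls. Its interaction was 0.90 (standard error 0.189, adjusted p = 0.0265), and the lowest labelled knockout was the shallow library 2, with 4 counts.

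Among the genes called lower, several encode proteins that leave the cell. Thbs4, thrombospondin 4, is a matrix glycoprotein of muscle and tendon. Its ribosomal level was 22.5, 30.7 and 58.8 CPM in labelled knockouts and 48.8, 71.5 and 96 CPM in controls, so that labelled knockout 12 alone reached into the control range. Its total level was 114, 166 and 280 CPM in labelled knockouts and 77.7, 141 and 197 CPM in controls. The interaction was −1.50 (standard error 0.302, adjusted p = 0.0205), with −1.22 in ribosomal RNA and 0.28 in total RNA, where it was not called (adjusted p = 0.359). Dkk3, a secreted glycoprotein of the Dickkopf family, had the most negative interaction, −1.64 (standard error 0.341, adjusted p = 0.0242). It was a low gene, at 0, 3.69 and 7.48 CPM in ribosomal RNA of labelled knockouts and 4.77, 8.73 and 13.7 CPM in that of controls, from 0 to 13 counts and 2 to 34 counts per library. Its total RNA, at 4.93, 6.36 and 9.87 CPM in labelled knockouts and 4.64, 5.56 and 8.04 CPM in controls, overlapped.

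Pam encodes the enzyme that amidates the C-terminus of secreted peptides. In ribosomal RNA it stood at 8.58, 11.8 and 15.2 CPM in labelled knockouts and at 16.2, 23.8 and 31 CPM in controls, without overlap. The 8.58 CPM was 1 count in labelled knockout 2, which does not exclude the control range. Total levels of 49.2, 60.1 and 72.4 CPM in labelled knockouts and 40.4, 50.7 and 64.3 CPM in controls overlapped. The interaction was −1.11 (standard error 0.201, adjusted p = 0.0132). Fam3c, a secreted cytokine-like protein gene, had an interaction of −1.04 (adjusted p = 0.0168), and its ribosomal level was 12 to 25.6 CPM in labelled knockouts and 19.1 to 39.1 CPM in controls. Aebp1 encodes a collagen-binding protein of the matrix, and all labelled knockouts (27.5 to 50.2 CPM) lay below all controls (61.1 to 143 CPM) in ribosomal RNA. Its total RNA ran from 33.1 to 51.3 CPM in labelled knockouts and from 36.8 to 59.9 CPM in controls, and the interaction was −0.99 (adjusted p = 0.0271). Ribosomal over total RNA of Aebp1 stood at −0.09 (log2) in labelled knockouts and 0.89 in controls.

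Scpep1 and Ggh encode enzymes of the lysosome. Scpep1, a serine carboxypeptidase, stood at 0, 13.8 and 17.2 CPM in ribosomal RNA of labelled knockouts and at 23.8, 28.6 and 34.6 CPM in that of controls. The value of 0 came from the shallow library of labelled knockout 2. The other 6 labelled knockouts held 11.3 to 17.2 CPM, below all 7 controls. Total levels stood at 57.9, 67.8 and 77.7 CPM in labelled knockouts and at 46, 66.1 and 69.3 CPM in controls. The interaction of −1.19 (standard error 0.182, adjusted p = 0.00105) combined −1.07 in ribosomal RNA with 0.12 in total RNA. Ggh, gamma-glutamyl hydrolase, which trims the glutamate tail of folates, had an interaction of −1.51 (standard error 0.302, adjusted p = 0.0198). Its ribosomal level was 2.37, 5.43 and 17.2 CPM in labelled knockouts and 12.6, 16.2 and 24.6 CPM in controls, and the overlap came from labelled knockout 2, whose 17.2 CPM were 2 counts.

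Os9 encodes a lectin of the endoplasmic reticulum that takes part in the removal of misfolded glycoproteins. It stood at 3.19, 6.41 and 9.22 CPM in ribosomal RNA of labelled knockouts, against 7.48, 10.9 and 13.4 CPM in that of controls, with labelled knockouts 2 and 13 inside the control range. Total levels stood at 14.6, 17.9 and 22.3 CPM in labelled knockouts, against 12, 14.9 and 16.2 CPM in controls. Effects of −0.91 in ribosomal RNA and 0.33 in total RNA, the second not called (adjusted p = 0.104), gave an interaction of −1.25 (standard error 0.240, adjusted p = 0.0168). Fkbp9, a prolyl isomerase of the same compartment, lies outside the naming rule because it follows the 12 lowest genes. All its labelled knockouts (93.2 to 127 CPM) lay below all controls (130 to 214 CPM) in ribosomal RNA, and its interaction was −0.67 (adjusted p = 0.0198).

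At the cell surface, Il1r1, the signalling receptor for interleukin-1, had an interaction of −1.60 (standard error 0.328, adjusted p = 0.023). Its ribosomal level was 0.639, 2.55 and 8.58 CPM in labelled knockouts and 5.14, 9.53 and 13.1 CPM in controls, and 8.58 CPM was 1 count in labelled knockout 2. Tspan5, a tetraspanin that guides the protease ADAM10, stood at 0, 5.07 and 7.11 CPM in ribosomal RNA of labelled knockouts and at 11.2, 14 and 16.9 CPM in that of controls. The 0 came from the shallow library of labelled knockout 2, where a count of 0 does not exclude the control range, and the other labelled knockouts lay below all controls. Its total RNA ran from 7.3 to 12.3 CPM in labelled knockouts and from 9.51 to 13.9 CPM in controls, and the interaction was −1.14 (standard error 0.249, adjusted p = 0.0389). Atp1b3, a beta subunit of the sodium pump, ranged from 16 to 40.6 CPM in ribosomal RNA of labelled knockouts and from 40.8 to 66.7 CPM in that of controls, with an interaction of −0.88 (adjusted p = 0.023). Plpp3, a membrane phosphatase that removes phosphate from lysophosphatidic acid, had an interaction of −0.67 (adjusted p = 0.028) and lies outside the rule, as do Myl6, a non-muscle myosin light chain gene (−0.84, adjusted p = 0.0424), and 2210408F21Rik (−0.58, adjusted p = 0.0198). The sorting of the called genes by place of their protein was made after the values were seen, and was not tested.

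Tanc1, a scaffold protein gene, differed from the other genes called lower in that its fall in total RNA was called as well. Its ribosomal level was 8.58, 11.1 and 16.6 CPM in labelled knockouts and 31, 46.4 and 69 CPM in controls. In total RNA it stood at 32, 35 and 39.1 CPM in labelled knockouts and 44.9, 60.7 and 84.7 CPM in controls. The groups did not overlap in either RNA type, but the 8.58 CPM was 1 count in the shallow ribosomal library of labelled knockout 2. The effect was −1.94 (standard error 0.169) in ribosomal RNA and −0.83 (standard error 0.128, adjusted p = 6.18e-05) in total RNA, and the interaction was −1.12 (standard error 0.213, adjusted p = 0.0168).

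**Figure D2:**
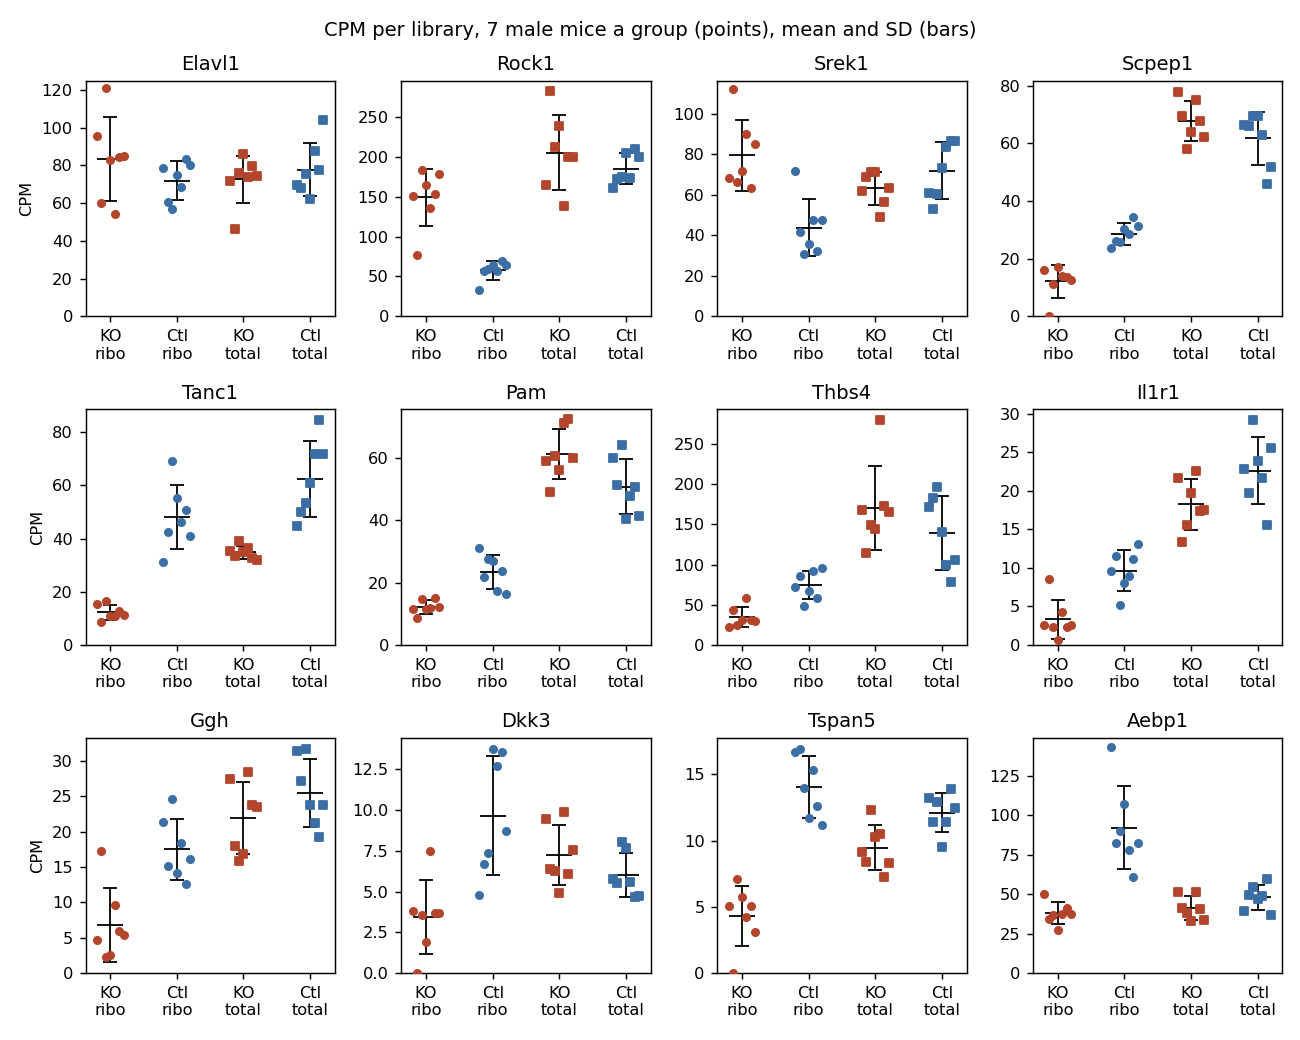
CPM of each library for Elavl1 and 11 genes called in the interaction, with labelled knockouts (KO, red) left of controls (Ctl, blue), ribosomal RNA as circles and total RNA as squares, and bars for the mean and SD of 7 mice. Rock1 is 77.2 to 183 CPM in ribosomal RNA of labelled knockouts and 33.4 to 69.2 CPM in that of controls, and Scpep1 is 0 to 17.2 CPM and 23.8 to 34.6 CPM, while the total RNA of both overlaps.

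The plot of CPM by library shows the overlap of Elavl1 in both RNA types, and the separation of Tanc1 in both. The ratio of ribosomal to total CPM within a mouse gave a further view, with each mouse paired by its number in the labels. In 29 genes (0.243%) all 7 labelled knockouts lay beyond all 7 controls, with 18 below (0.151%) and 11 above (0.0922%). Among the 16 genes called lower this held for Fkbp9. It also held for Tanc1 and Pam, but each had 1 count in the ribosomal library of labelled knockout 2, which places this mouse poorly. It held by number for Dkk3, Scpep1 and Tspan5 too, but these had 0 counts in the ribosomal library of labelled knockout 2, where the ratio is set by the prior count and the mouse cannot be placed. For Pam the log2 ratio was −2.54, −2.23 and −1.99 (lowest, median, highest) in labelled knockouts and −1.45, −1.20 and −0.57 in controls. For Tanc1 it was −1.89, −1.47 and −1.18 in labelled knockouts and −0.79, −0.53 and 0.36 in controls. For Rock1 it was −1.86, −0.21 and −0.03 in labelled knockouts and −2.25, −1.60 and −1.54 in controls, and all labelled knockouts but mouse 2, the shallow library at −1.86, exceeded every control.

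Since 2 genes called higher met the naming rule, the list was filled to 8 with the positive interactions of lowest p, and these 6 did not pass. Stap2, an adaptor protein gene, had an interaction of 1.47 (standard error 0.338, adjusted p = 0.0625), with 5.53, 8.3 and 17.2 CPM in ribosomal RNA of labelled knockouts and 0.605, 2.82 and 3.3 CPM in that of controls. The 17.2 CPM was 2 counts in the shallow library of labelled knockout 2. Pde4d, a cyclic AMP phosphodiesterase gene, had an interaction of 1.08 (adjusted p = 0.0625), with an effect of 0.23 in ribosomal RNA and −0.85 in total RNA. Its total RNA stood at 50.3, 69.9 and 89.6 CPM in labelled knockouts and at 84.9, 135 and 179 CPM in controls. Values for the others were 0.58 for the stress kinase gene Mapk8 (adjusted p = 0.0651), 0.72 for Mical2, whose product oxidises actin (adjusted p = 0.0715), 1.21 for the sterol transporter gene Gramd1b (adjusted p = 0.0715) and 1.11 for the zinc finger gene Zkscan3 (adjusted p = 0.0788).

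The number of calls was small and moved with single libraries. No named gene changed sign in any of 11 distinct other settings or 28 fits without a single library. Apart from Elavl1 these genes were chosen by low p in the same libraries, so their kept sign is no further support. Without the ribosomal library of labelled knockout 14, 2 genes were called, and without that of labelled knockout 10, 4 were called. Without the ribosomal library of labelled knockout 6 there were 11, and without the total library of labelled knockout 12 there were 12. Leaving out total controls 25, 26 and 27 gave 4 genes, leaving out total labelled knockouts 1 and 12 also gave 4, and leaving out the shallow ribosomal libraries 2 and 20 gave 23, of which 16 were shared with the 19. With the mouse as a block, 10 genes were called, 9 of them shared. Rock1 and Scpep1 were called in every one of these settings and fits, with interactions of 1.10 to 1.34 and −1.28 to −1.06. Tanc1 missed the threshold without ribosomal labelled knockout 10 (−1.08, adjusted p = 0.0508) or 14 (−1.01, adjusted p = 0.0965), and without total labelled knockouts 1 and 12 (−1.10, adjusted p = 0.0717), as Srek1 did (0.98, adjusted p = 0.0743). Pam and Srek1 missed it without ribosomal labelled knockout 14 (−1.05 and 1.05, adjusted p = 0.071 each) and without total controls 25, 26 and 27 (−1.03, adjusted p = 0.0641, and 0.84, adjusted p = 0.094). Pam also missed it without the 5 doubted libraries together, the shallow ones and those controls (−0.99, adjusted p = 0.0603), where 6 genes were called. Thbs4, Ggh and Il1r1 missed it without ribosomal labelled knockout 6 (−1.43, −1.38 and −1.59, adjusted p = 0.0506 each), 10 or 14, and Fam3c, Os9, Fkbp9 and 2210408F21Rik missed it without 10 or 14. Of the 19 only Rock1, Scpep1 and Tanc1 passed without total controls 25, 26 and 27. Only Rock1, Scpep1, Pam and Os9 passed without total labelled knockouts 1 and 12. Only Rock1, Scpep1, Tanc1, Srek1 and 2210408F21Rik passed without the 5 doubted libraries. Tspan5, Plpp3, Fkbp9 and 2210408F21Rik missed it with every gene of at least 1 count kept. Aebp1, Atp1b3, Plpp3, Myl6 and 2210408F21Rik missed it in the fit of 56 libraries. With the mouse as a block Dkk3 (−1.62, adjusted p = 0.0854), Il1r1 (−1.65, adjusted p = 0.104), Os9 (−1.21, adjusted p = 0.104), Tspan5 (−1.15, adjusted p = 0.114), Aebp1 (−0.99, adjusted p = 0.0854), Plpp3 (−0.68, adjusted p = 0.104), Fkbp9 (−0.69, adjusted p = 0.071), Myl6 (−0.80, adjusted p = 0.171), 2210408F21Rik (−0.57, adjusted p = 0.147) and 5031425E22Rik (0.92, adjusted p = 0.104) did not pass, and Pde4d did (1.09, adjusted p = 0.0348). Myl6 was called in 8 of the 28 fits, Tspan5 in 11, Plpp3 in 13, Aebp1 and 5031425E22Rik in 19 each, Dkk3 in 20 and Atp1b3 in 24.

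Female mice carried the same genotypes and gave a comparison in other animals. In a fit of all 56 libraries the male interaction was called for 16 of 12546 genes (0.128%, 0.0319% higher and 0.0956% lower). The female one was called for 434 (3.46%, 1.85% higher and 1.61% lower). Female ribosomal libraries were shallower than male ones at the median. They held 0.937 M counts in labelled knockouts and 1.59 M in controls, against 1.86 M and 2 M in males. The part of depth in the female calls and in differences between the sexes was not tested. The female values had the male sign for 14 of the 19 genes and were called for 3 of them. Rock1 had a female interaction of 1.08 (standard error 0.196, adjusted p = 0.000598), Srek1 of 0.82 (standard error 0.237, adjusted p = 0.0371) and Tanc1 of −0.83 (standard error 0.240, adjusted p = 0.0366). Scpep1, by contrast, stood at −0.12 in females (standard error 0.243), Pam at −0.14 (standard error 0.246), Thbs4 at 0.21 (standard error 0.319) and Os9 at 0.20 (standard error 0.267). The difference between the sexes was itself tested and passed for none of these 19 genes. The nearest were Thbs4 (male minus female −1.70, standard error 0.426, adjusted p = 0.0768) and Os9 (−1.43, standard error 0.368, adjusted p = 0.0857). Over all genes the difference passed for 13 (0.104%), with 1 higher (0.00797%) and 12 lower (0.0956%) in males.

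**Figure D3:**
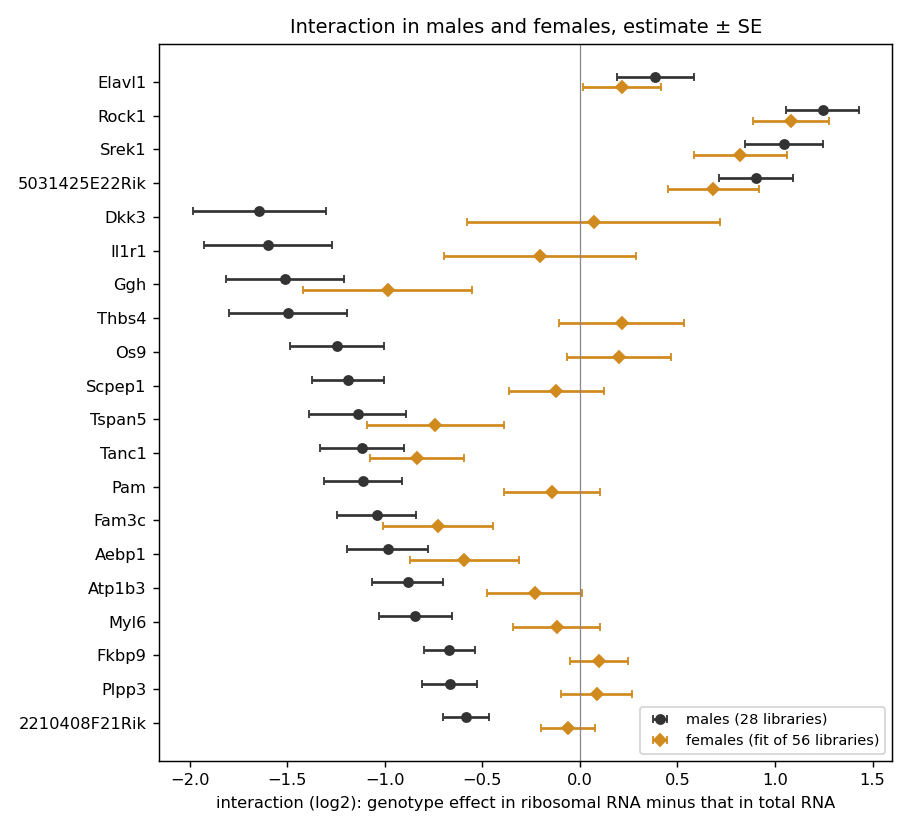
Interaction (log2) with its standard error for Elavl1 and the 19 genes called in males, in males (circles, 28 libraries) and in females (diamonds, fit of 56 libraries). Rock1, Srek1, 5031425E22Rik and Tanc1 lie close together in the sexes, whereas the male and female values of Thbs4 (−1.50 and 0.21) and Os9 (−1.25 and 0.20) lie on either side of 0.

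The plot of both sexes separates genes whose female value lay near the male one, such as Rock1, from genes whose female value lay near 0, such as Pam and Scpep1.

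AU-rich elements have the pentamer ATTTA at their core. The 3′ UTR of each called gene was read from the GENCODE M21 transcript with the longest coding sequence (GRCm38), and 17 of the 19 genes had one. On the transcript strand 12 of the 17 (70.6%) held at least 1 ATTTA, against 68.2% of 10964 genes tested that had a 3′ UTR. A run TTTTTTT was found in 9 of 17 (52.9%), against 43.3% of these genes, and the median 3′ UTR was 889 bases long in the called genes, against 1047 in all. A match is a description of the letters and not a site of binding. The first ATTTA after the stop codon, in capitals, is shown with 10 bases on either side for Srek1 and 4 genes called lower, since HuR is best known for this element, from the transcript strand of chromosomes 13 (Srek1), 11 (Scpep1), 1 (Pam), 2 (Tanc1) and 6 (Fam3c).
Srek1: cattttaatcATTTAgccacatatg
Scpep1: cccaaagagtATTTAaaaccagact
Pam: agtttagctcATTTAcatttggaga
Tanc1: atatctggcgATTTAaaggctgcca
Fam3c: ttccaggattATTTAttgctaacag
The pentamer began 1757 bases after the stop codon in Srek1, 186 in Scpep1, 285 in Pam, 240 in Tanc1 and 142 in Fam3c. It occurred 3 times each in Scpep1, Tanc1 and Fam3c. Thbs4, Os9, Aebp1, Myl6 and Fkbp9 held none in the 3′ UTR read here, which says nothing of the factor.

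Lists of genes of known pathways and cell types were counted with the p adjusted over all genes tested. Of all genes 54.5% had a negative and 45.5% a positive interaction, and 5.78% had an unadjusted p under 0.05 downward and 3.94% upward, beside which the counts of each list are to be read. Calls of genotype within 1 RNA type are to be read beside their own shares of all genes. These were 4.53% higher and 5.83% lower in ribosomal RNA, and 6.55% higher and 4.38% lower in total RNA. Of 40 lists, 38 had no called member, and the matrix and tendon lists each had 1, which was Thbs4 in both. Of 34 mRNAs known from the literature to bind HuR, 0 were called, 1 had an unadjusted p under 0.05 upward and 1 downward, and the median interaction was −0.06, beside −0.03 over all genes. Actb, the cytoplasmic actin gene and a classical HuR target, was the member of lowest p. It stood at 297, 307 and 498 CPM in ribosomal RNA of labelled knockouts and at 453, 533 and 686 CPM in that of controls, and at 683, 934 and 990 CPM in total RNA of labelled knockouts and 720, 867 and 1150 CPM in that of controls. Its fall was called in ribosomal RNA (−0.68, adjusted p = 0.000562) but its interaction did not pass (−0.67, standard error 0.178, adjusted p = 0.126), and counts of Actb can be split with near-identical copies. Mcl1, a survival factor gene, stood at 0.27 (adjusted p = 0.472), the glucose transporter gene Slc2a1 at −0.70 (adjusted p = 0.553) and the cap-binding factor gene Eif4e at −0.24 (adjusted p = 0.606). Of 15 AU-rich element binding protein genes 0 were called and 10 were positive (median 0.19), with Celf1 at 0.31 (adjusted p = 0.4) and Ybx1 at −0.37 (adjusted p = 0.47).

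The genes of the translation machinery leaned below 0 without a call. Of 76 cytosolic ribosomal protein genes 75 had a negative interaction and 0 were called, 19 had an unadjusted p under 0.05 downward, and the median was −0.29. Their effect of genotype had a median of 0.26 in total RNA, where 15 were called higher, and of −0.04 in ribosomal RNA, where 1 was called higher. Beside these stand 6.55% of all genes called higher in total RNA and 4.53% in ribosomal RNA. Rpl22 stood at 257, 301 and 333 CPM in ribosomal RNA of labelled knockouts and at 250, 332 and 416 CPM in that of controls, and at 211, 243 and 287 CPM in total RNA of labelled knockouts and 144, 202 and 228 CPM in that of controls. Its interaction was −0.48 (adjusted p = 0.226), that of Rpl38 −0.76 (adjusted p = 0.24) and that of Rps14 −0.50 (adjusted p = 0.277). The 1 positive value belonged to Rpl10a, the gene of the tagged protein, chosen here after its values were seen (0.57, standard error 0.339, adjusted p = 0.61), which had a mean of 5.91 CPM. The list's median was −0.15 without total controls 25, 26 and 27, −0.16 without the shallow ribosomal libraries and −0.10 without all 5, and it was −0.03 in females. These genes have many near-identical pseudogenes, among which counting can split reads. Of 45 translation factor genes 37 were negative and 0 were called (median −0.17, and −0.04 without the shallow libraries), with the poly(A)-binding protein gene Pabpc1 at −0.64 (adjusted p = 0.358) and the scaffold factor gene Eif4g1 at −0.23 (adjusted p = 0.475). Eif4g1 and Eif5 fell in ribosomal RNA (−0.30, adjusted p = 0.00825, and −0.34, adjusted p = 0.0402).

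Energy metabolism gave small values. Of 59 nuclear-encoded oxidative phosphorylation genes 49 were negative and 0 were called (median −0.18, and −0.09 without the shallow ribosomal libraries). The subunit genes of lowest p were Cox8b (−0.45, adjusted p = 0.336), Atp5g1 (−0.46, adjusted p = 0.371), Ndufa6 (−0.42, adjusted p = 0.4) and Uqcrh (−0.47, adjusted p = 0.4). Of 20 fatty acid oxidation genes 17 were negative and 0 were called (median −0.15, and −0.06 without the shallow libraries). Hadha, a subunit of the mitochondrial trifunctional protein, fell in ribosomal RNA (−0.46, adjusted p = 0.0142) with an interaction of −0.29 (adjusted p = 0.604). Of 18 PPAR target and lipid storage genes 13 were negative and 0 were called (median −0.10). Among these Cd36, the fatty acid uptake gene, fell in ribosomal RNA (−0.82, adjusted p = 0.00141), was not called in total RNA (−0.25) and had an interaction of −0.57 (adjusted p = 0.4). Its ribosomal level averaged 262 CPM (SD 58.3) in labelled knockouts and 464 CPM (SD 212) in controls. The 31 proteasome subunit genes had a median of −0.08 and 17 glycolysis genes one of 0.02, with 0 called in each. Among 19 selenoprotein genes, Gpx3, the plasma glutathione peroxidase gene, had the lowest p (−0.94, standard error 0.259, adjusted p = 0.148) with 0 called in the list. Gpx3 fell in ribosomal RNA (−0.95, adjusted p = 0.000907), with means of 166 CPM in labelled knockouts and 322 CPM in controls. In total RNA its effect was −0.015 (adjusted p = 0.982). Kidney makes much Gpx3, and the total library of labelled knockout 6, which was high in kidney transcripts, held 401 CPM against a group median of 166 CPM. The part of that library in the value was not tested.

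Circadian clock genes leaned the other way. Of 18 tested 16 had a positive interaction, 5 with an unadjusted p under 0.05, and 0 were called (median 0.22). Arntl, the activator at the core of the clock, stood at 30.7, 35.7 and 41.7 CPM in ribosomal RNA of labelled knockouts and at 10.9, 15.6 and 23.8 CPM in that of controls, without overlap. In total RNA it stood at 26.3, 39 and 47.6 CPM in labelled knockouts and 22.2, 32.4 and 44.5 CPM in controls, which overlapped. Its rise was called in ribosomal RNA (1.10, adjusted p = 0.000116), while its interaction was 0.89 (standard error 0.236, adjusted p = 0.126). Bhlhe40, a repressor in the clock, lay at 180 to 225 CPM in ribosomal RNA of labelled knockouts and 131 to 170 CPM in that of controls, with 116 to 176 CPM and 128 to 176 CPM in total RNA, and had an interaction of 0.50 (adjusted p = 0.132). Per3, a period gene, fell in total RNA (−0.82, adjusted p = 0.00573) and not in ribosomal RNA (0.69, adjusted p = 0.23), with an interaction of 1.51 (standard error 0.408, adjusted p = 0.134). Its ribosomal level was low, at 3.19 to 17.2 CPM in labelled knockouts and 0 to 8.08 CPM in controls, and the 17.2 CPM was 2 counts in labelled knockout 2. Nr1d1, a nuclear receptor that represses Arntl, rose in ribosomal RNA (0.51, adjusted p = 0.00326) with an interaction of 0.44 (adjusted p = 0.323). Over the list 3 genes rose and 2 fell in ribosomal RNA, and 1 rose and 7 fell in total RNA. Shares of all genes were 4.53% and 5.83% in ribosomal RNA, and 6.55% and 4.38% in total RNA. The female median was −0.13, and the time of day of the samples was not used here.

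Fibre genes showed no call. Of 8 fibre markers 7 were negative and of 12 slow fibre genes 7 were positive, with medians of −0.12 and 0.01. Myh7, the slow myosin heavy chain gene, rose in ribosomal RNA (0.82, adjusted p = 0.049) with an interaction of 0.74 (adjusted p = 0.497). Of 13 neuromuscular junction genes 10 were positive and 0 were called (median 0.33, and 0.15 to 0.38 over the other settings), with Dok7 at 0.40 (adjusted p = 0.486) and the receptor subunit gene Chrnb1 at 0.33 (adjusted p = 0.561). Of 19 atrophy, ubiquitin and autophagy genes 0 were called, and Mstn, the growth inhibitor myostatin, fell in ribosomal RNA (−1.14, adjusted p = 0.00215) with an interaction of −0.77 (adjusted p = 0.438). Its ribosomal level averaged 105 CPM (SD 22.5) in labelled knockouts and 254 CPM (SD 196) in controls, which spread widely.

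Markers of cells other than fibres were measured in both RNA types. Of 23 matrix genes 22 were negative (median −0.30). In total RNA 13 of the 23 rose, and in ribosomal RNA 0 rose. Of 12 fibroblast genes 11 were negative (median −0.31), 10 rose in total RNA and 1 in ribosomal RNA. Over all genes tested 6.55% rose in total RNA and 4.53% in ribosomal RNA. The counts of 0 and 1 in ribosomal RNA are near that share. The matrix genes summed to 4900 to 6820 CPM in total RNA of labelled knockouts and 3070 to 5260 CPM in that of controls. In ribosomal RNA they summed to 526 to 1540 CPM in labelled knockouts and 551 to 822 CPM in controls. The fibroblast genes summed to 3640 to 4960 CPM in total RNA of labelled knockouts and 2290 to 3430 CPM in that of controls, and to 448 to 1170 CPM and 298 to 541 CPM in ribosomal RNA. In both lists 0 genes stood at 0 in a whole group, and the part of these cells in the called genes was not tested. Without total controls 25, 26 and 27 the medians were −0.11 for matrix and −0.13 for fibroblast genes. In females the medians were 0.86 and 0.82, with 8 and 4 genes called. Dcn, a small matrix proteoglycan gene, rose in total RNA (0.70, adjusted p = 0.00617) with an interaction of −0.47 (adjusted p = 0.553). Endothelial, smooth muscle, macrophage and Schwann cell genes had medians of 0.07, 0.10, −0.17 and 0.10, with 0 called in each.

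Transcripts that fibre ribosomes should hold little of differed widely. The 8 mitochondrially encoded mRNAs tested had a median of 0.06, with values between −1.89 (mt-Nd6, adjusted p = 0.103) and 1.27, and the median was −0.22 without the shallow libraries, which were the richest in these RNAs. Of 9 nuclear long non-coding RNAs 0 were called (median 0.14). Neat1, the scaffold of paraspeckles, fell in total RNA (−0.60, adjusted p = 0.0236) and had an interaction of 0.97 (standard error 0.265, adjusted p = 0.139). Kcnq1ot1, an imprinted nuclear RNA antisense to Kcnq1 whose reads cannot be told apart from those of its partner without strand, fell in total RNA (−0.95, adjusted p = 0.00243), with an interaction of 1.14 (adjusted p = 0.406). These lists had female medians of 1.73 and 1.64, with 5 genes called in each.

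**Figure D4:**
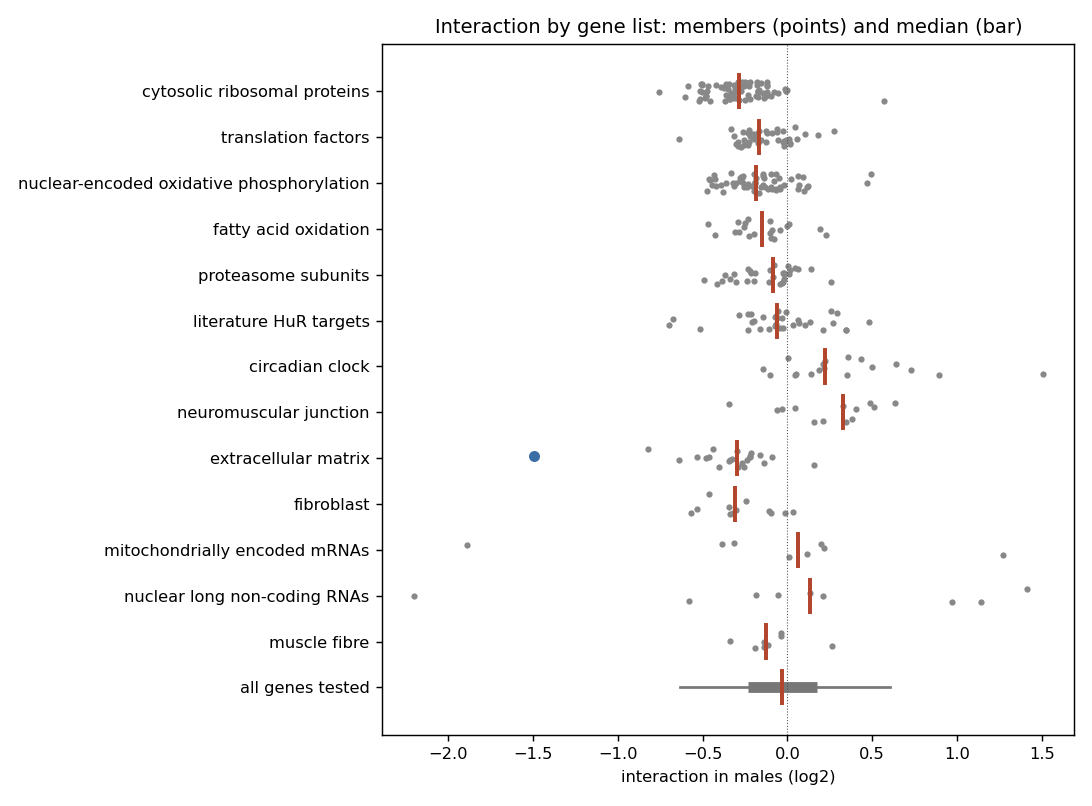
Interaction in males (log2) of each member of 13 gene lists (points, Thbs4 in blue as the called member) with the list's median (red bar), and for all 11931 genes the central 90% (thin line), the central 50% (thick line) and the median. Ribosomal protein genes lie almost wholly below 0 around a median of −0.29, circadian clock genes mostly above 0 around 0.22, and HuR targets on both sides of 0.

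The plot of gene lists sets these leanings against the spread of all genes, of which 90% lay between −0.64 and 0.61. The interaction also differed with how strongly ribosomal RNA was enriched in a gene. With genes sorted by their ribosomal over total value in female controls, which take no part in the male contrast, the 1327 genes above 1 (log2) had a median male interaction of −0.17, with 76.6% of them negative. The median was −0.05 for 4174 genes between 0 and 1, 0.03 for 3620 genes between −1 and 0, 0.01 for 1567 genes between −2 and −1, and 0.01 for 1241 genes below −2. Called genes were found in 8 of the 1567 genes between −2 and −1 (0.511%) and in 1 of the 1327 above 1 (0.0754%), beside 0.159% of all. Below −2, 0 of the 1241 genes were called. The median standard error was 0.574 there, 0.348 between −2 and −1 and 0.208 above 1. Of the 7 genes called lower between −2 and −1, Scpep1 lay at −1.57, Pam at −1.68 and Thbs4 at −1.87 in female controls. Precision rose with expression. The median standard error was 0.440 for 3462 genes with a mean of 2 to 10 CPM, of which 2 were called, and 0.167 for 2678 genes of 50 to 200 CPM, of which 10 were called. For 884 genes over 200 CPM it was 0.164, and 0 were called.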

How the data were processed

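The authors deposited a table of whole counts per gene and library. Per the labels' protocols, the Lexogen Quant-Seq 3′ kit was used on 500 ng of RNA, with forward reads of 50 bp. UMI-tools, STAR, HTSeq, DESeq2 1.40.1, R 4.3.0 and the GRCm39 build are named in the submitters' processing notes, and their settings are not given in the sources used here. Columns were assigned by the codes in the sample descriptions, with 0 unused, and 5 HTSeq summary lines were left out. Symbols matched 52029 of 57010 identifiers, which held 97.56% of counts. Reads outside genes and depth are given with the libraries.

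The 28 male libraries were fitted with edgeR 4.0.16 in R 4.3.3 (filterByExpr, TMM, 4 group means, quasi-likelihood F-test), and the interaction and both genotype effects were contrasts of this fit, with Benjamini-Hochberg adjustment over 11931 genes and a threshold of 0.05. Sex was compared in a fit of all 56 libraries. CPM used TMM-scaled library sizes, and log2 ratios per mouse a prior count of 2. Alternatives were DESeq2 1.42.0, limma-voom 3.58.1 with sample weights, RLE scaling, keeping every gene with at least 1 count, all 56 libraries, the mouse as a block, and leaving out libraries. Leaving out kidney-transcript libraries (ribosomal labelled knockout 1 and total labelled knockout 6), the 5 doubted libraries together, or total labelled knockouts 1 and 12 was chosen after seeing the data. The fit was run on counts simulated from its own means and spread with independent libraries, which checks neither the pairing nor outlying libraries. 1 result is not reported here.

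Named genes were Elavl1, up to 12 called genes in each direction with a mean of at least 5 CPM and no clone name, ranked by size, a fill to 8 by p where fewer were called, and up to 4 members of lowest p per list. The members and lists were chosen with earlier results of these data known. A number shared by a ribosomal and a total library in the labels was read as 1 mouse. Over the 500 most variable genes, deviations of same-numbered libraries from their group means correlated by −0.168 to 0.448 in labelled knockouts (mean 0.127, 5 of 7 over 0.1) and by −0.323 to 0.205 in controls (mean −0.164, 1 of 7 over 0.1). The pairing rests on the labels alone, and the values of the controls do not back it.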

Additional observations from a re-analysis of the deposited data

Results flagged for a closer look

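Among the called genes and Elavl1, 80 groups of 7 libraries were examined for a library far from the other 6, and 8 were found; chance flags about 1 in 20 groups. In ribosomal RNA of labelled knockouts, library 2 stood apart for 2210408F21Rik (154 CPM, the others 98.1 to 117) and for Scpep1 (0 CPM, the others 11.3 to 17.2). In ribosomal RNA of controls, library 20 stood apart for Fkbp9 (214 CPM, the others 130 to 155), Rock1 (33.4 CPM, the others 56.6 to 69.2) and Srek1 (71.5 CPM, the others 30.8 to 47.7). These are the shallowest ribosomal libraries of their groups, and the part of depth was not tested. In total RNA, labelled knockout 2 was low in Elavl1 (46.3 CPM, the others 71.6 to 86.2), labelled knockout 12 high in Thbs4 (280 CPM, the others 114 to 173) and control 22 high in Plpp3 (284 CPM, the others 226 to 235).

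For 13 genes the male and the female interaction differed in the test of that difference (edgeR quasi-likelihood test, 56 libraries), and 12 of them are given here. The mitochondrially encoded mt-Nd6 had a male minus female difference of −3.63 (adjusted p = 0.0122), and the mitochondrial tRNA genes mt-Tm and mt-Tv had −2.83 and −2.78 (adjusted p = 0.016 and 0.0122). Differences of other genes lower in males were −3.13 for the calcium-binding chaperone gene Rcn3, −2.36 for the spectrin gene Sptan1, −2.10 for Igfbp6, −2.0 for the fibronectin gene Fn1, −1.80 for Gabbr1, −1.61 for the basement membrane collagen gene Col4a2, −1.50 for Clstn1 and −1.24 for the smooth muscle actin gene Acta2, with adjusted p between 0.0113 and 0.0331. The gene higher in males was Sap18 at 1.31 (adjusted p = 0.0271), with a male value of 0.24 and a female value of −1.07. In the 11 given genes lower in males the male interaction lay between −1.87 and −0.11, and the female one was called and lay between 0.98 and 2.39. Female medians were also high for lists that fibre ribosomes should hold little of. They were 1.73 for mitochondrially encoded mRNAs, 1.64 for nuclear long non-coding RNAs and 1.13 for endothelial genes. The part of the shallower female ribosomal libraries, or of RNA carried over into them, was not tested.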

How the results depend on the processing

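The interaction called 19 genes, 3 higher and 16 lower. No filter beyond 1 count gave 34 (14 higher), DESeq2 gave 61 (23 higher, 38 lower) and limma-voom with sample weights 39 (8 higher, 31 lower). The replicate block (mouse) gave 10 (7 lower). Without the ribosomal libraries under 0.75 M counts, which are also those highest in mitochondrial mRNA, 8 genes were called higher. Without total controls 25, 26 and 27 there were 4 (1 higher, 3 lower), without total labelled knockouts 1 and 12 also 4 (1 higher, 3 lower), and without all 5 doubted libraries 6 (4 lower). Leaving out 1 library gave 2 to 28 genes, 1 to 8 higher and 1 to 22 lower. RLE size factors, the fit of 56 libraries and leaving out the kidney-transcript libraries gave 19, 16 and 19. The effect of genotype called 1236 genes in ribosomal RNA (936 in its 14 libraries alone) and 1303 in total RNA (1369 alone). Over the 26 named genes and all alternatives, 0 reversed, but all except Elavl1 were chosen by low p in these same libraries. The block changed no call of a named gene beyond those given with the calls. Depth of the ribosomal libraries limits genes under 10 CPM, and causes of the moves were not tested.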

Other observations

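Most erythroid genes rose in both RNA types, and their interactions lay between −0.27 and 0.31. The 8 erythroid genes, 6 of them tested, summed to 617 to 806 CPM in ribosomal RNA of labelled knockouts and 376 to 520 CPM in that of controls. In total RNA they summed to 1420 to 2410 CPM in labelled knockouts and 698 to 1000 CPM in controls, without overlap in either RNA type. Their median effect was 1.11 in ribosomal and 1.06 in total RNA, and the median interaction was −0.01 with 0 called. In each RNA type 5 of 6 rose, beside 4.53% of all genes in ribosomal and 6.55% in total RNA. Hba-a1, an alpha globin gene with near-identical copies, had an interaction of 0.31 (standard error 0.229, adjusted p = 0.709). Of 10 adipocyte genes 2 rose in ribosomal and 4 in total RNA. Car3, a carbonic anhydrase of fat and slow fibres that made up most of the adipocyte list's counts, averaged 5020 CPM in ribosomal RNA of labelled knockouts and 2570 CPM in that of controls, and 2400 CPM and 1670 CPM in total RNA. It rose in both (0.97, adjusted p = 9.56e-05, and 0.52, adjusted p = 0.0308), with an interaction of 0.45 (adjusted p = 0.519). Mss51 likewise rose in both, by 1.30 and 0.85, with an interaction of 0.44 (adjusted p = 0.615).

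Kidney transcripts summed to 568 CPM in the ribosomal library of labelled knockout 1 and to 1590 CPM in the total library of labelled knockout 6, against group medians of 172 CPM and 187 CPM. Muscle does not normally make transcripts such as Kap, and without these libraries 19 genes were called, 16 of them shared.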
